A study of Homo sapiens with 12 samples.

Results

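The genes described here encode the proteins of the cytosolic ribosome and of the mitochondrial ribosome, and were followed in MOLT4 cells after exposure to compound 955 or to SNS-032. Members were the protein-coding rows whose Entrez ID maps to a RefSeq symbol beginning RPL or RPS (cytosolic) or MRPL or MRPS (mitochondrial), without the RPS6K kinases and RPS6KL1. No measured value entered that rule. It found 130 members among the 5759 genes that the authors' deposited table lists. They were 68 cytosolic genes, 38 of the large and 30 of the small subunit by symbol, and 62 mitochondrial genes, 40 of the large and 22 of the small subunit by symbol.

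MOLT4 is an established wild-type human T lymphoblast line derived from an acute lymphoblastic leukaemia. Its 12 samples formed 4 groups of 3. Of these, 3 samples were kept in DMSO, the vehicle, for 6 h, while 0.1 µM of 955 was given to 3 samples for 1 h and to another 3 for 6 h. The last 3 received 1 µM of SNS-032, also for 6 h. SNS-032 inhibits cyclin-dependent kinases, among them CDK9, which releases RNA polymerase II into productive elongation, and 955 is a conjugate of piperlongumine in which SNS-032 is the warhead. The study asked how effective and how specific 955 is beside that warhead. The doses of the compounds differ, and the only DMSO group was taken at 6 h, so in the 1 h comparison treatment and time in culture cannot be told apart. The labels do not say whether the samples of a group were separate cultures, so the tests measure the spread between these samples, which may be technical.

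A ribosome translates mRNA into protein. The cytosolic ribosome joins ribosomal RNA to proteins whose mRNAs are among the most abundant and most stable of the cell, and most of these mRNAs begin with a 5′ terminal oligopyrimidine (TOP) tract, a C followed by a run of pyrimidines, through which mTOR signalling controls their translation. The mitochondrial ribosome is built in mitochondria from mitochondrially encoded ribosomal RNA and from proteins that are all encoded in the nucleus, and it translates the mRNAs of the mitochondrial genome. The RPL and MRPL genes encode large-subunit proteins and the RPS and MRPS genes small-subunit proteins, with exceptions such as MRPS18A and MRPS30, whose products sit in the large subunit.

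Starts of the genes on which the results turn are shown first, as 60 bases before the RefSeq start in lower case and the first 15 transcribed bases in capitals, 5′ to 3′ on the strand of the gene (RefSeq, GRCh38.p14). The first set holds 5 cytosolic genes with high values at 6 h: RPS12 (chr6:132814509-132814583, plus strand), RPLP1 (chr15:69452758-69452832, plus strand), RPLP0 (chr12:120201097-120201171, minus strand), RPL12 (chr9:127451392-127451466, minus strand) and RPS27 (chr1:153990702-153990776, plus strand).
RPS12: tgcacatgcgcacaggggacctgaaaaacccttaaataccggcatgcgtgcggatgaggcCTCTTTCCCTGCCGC
RPLP1: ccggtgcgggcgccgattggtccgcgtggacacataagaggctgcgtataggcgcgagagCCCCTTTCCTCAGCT
RPLP0: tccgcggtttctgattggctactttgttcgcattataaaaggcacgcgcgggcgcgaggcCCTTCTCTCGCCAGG
RPL12: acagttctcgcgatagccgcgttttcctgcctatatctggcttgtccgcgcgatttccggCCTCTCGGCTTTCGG
RPS27: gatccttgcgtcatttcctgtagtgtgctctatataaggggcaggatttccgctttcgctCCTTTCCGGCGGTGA
Each of these 5 starts with a C and at least 4 pyrimidines after it. Other genes with high values at 6 h lack such a start and are not shown, RPSA2 and RPL27 among them. The second set holds cytosolic genes with values below 0 at 6 h: RPS27L (chr15:63157463-63157537, minus strand), the paralogue of RPS27, RPL36A (chrX:101390951-101391025, plus strand) and its paralogue RPL36AL (chr14:49620612-49620686, minus strand).
RPS27L: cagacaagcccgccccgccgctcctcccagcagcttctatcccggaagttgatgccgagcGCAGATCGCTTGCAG
RPL36A: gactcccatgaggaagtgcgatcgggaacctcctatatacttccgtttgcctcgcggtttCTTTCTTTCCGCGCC
RPL36AL: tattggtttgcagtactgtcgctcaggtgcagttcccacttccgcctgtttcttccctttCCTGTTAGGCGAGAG
Of these, only RPL36A has such a start. The third set holds mitochondrial genes, namely MRPS23 (chr17:57850030-57850104, minus strand) and MRPL58 (chr17:75012610-75012684, plus strand) from the low end, MRPL17 (chr11:6683326-6683400, minus strand), which differed between the compounds, and MRPS34 (chr16:1773120-1773194, minus strand) from the high end at 6 h with 955.
MRPS23: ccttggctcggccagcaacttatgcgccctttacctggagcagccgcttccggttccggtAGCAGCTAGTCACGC
MRPL58: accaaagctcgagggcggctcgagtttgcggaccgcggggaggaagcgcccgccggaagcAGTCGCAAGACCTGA
MRPL17: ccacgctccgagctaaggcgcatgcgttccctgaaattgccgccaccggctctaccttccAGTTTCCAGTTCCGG
MRPS34: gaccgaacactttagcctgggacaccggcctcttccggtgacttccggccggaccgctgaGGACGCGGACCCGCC
None of these 4 begins with a C.

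All fold changes against DMSO below are log2 values from the authors' deposited table, which holds comparisons and no values per sample, so a value for each replicate cannot be shown. Each carries an implied standard error (SE), which is the size of the log2 fold change divided by the root of the deposited F statistic. A gene is past the threshold when the deposited false discovery rate (FDR) is under 0.05 and the change is at least 2-fold, a log2 value of 1 or more in size. Every listed gene reaches a log2 value of 1.001 in size somewhere in the 3 comparisons, so a listed member had to move, and counts of members past the threshold are read only beside the same share of all listed genes. The table lists 68 of 92 protein-coding cytosolic genes that the rule finds in RefSeq (73.9%) and 62 of 77 mitochondrial ones (80.5%), against 5270 of all 20056 protein-coding genes (26.3%). The other 24 and 15, RPL4, RPL5, RPS18, MRPL11 and MRPS15 among them, were not analysed here. RefSeq holds 1994 pseudogenes with the cytosolic prefixes and 106 with the mitochondrial ones, and how reads shared with such copies were counted is not given in the sources used here.

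In bulk RNA a value is a share of the library, so a fall of other transcripts and a rise of the member, or fewer cells and less RNA per cell, cannot be told apart. The median log2 fold change over all listed genes was −0.05 for the 1 h samples of 955, −1.03 for its 6 h samples and −1.07 for SNS-032. The 13 mRNAs encoded in mitochondrial DNA, which RNA polymerase II does not make, had medians of 0.67, 2.07 and 2.35 in the same comparisons. Values shifted so that these 13 have a median of 0 are called mitochondrially scaled, and that shift lowers every gene of a comparison by the same amount. Of the 24 T lymphoblast markers examined 11 were listed, with average levels from 4.75 to 10.1 log2 CPM (log2 of counts scaled to a common library total), among them CD3G, CD7, CD1E and BCL11B. None of 5 myeloid and none of 3 erythroid markers was listed, and of 5 B-cell markers 2 were.

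After 1 h of 955 the cytosolic genes were slightly higher than in DMSO on the deposited scale and slightly lower after mitochondrial scaling. Their median log2 fold change was 0.41, with quartiles of 0.37 and 0.43, and −0.27 once scaled. No cytosolic member was past the threshold, against 8.44% of all listed genes. With the FDR alone, 47 of 68 were higher and none lower, against 4.72% of listed genes higher. Most values lay close together: 62 of the 68 were between 0.23 and 0.60. The SD over those 62 genes was 0.06, and over all 68 it was 0.24.

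RPL19, a large-subunit protein, had a log2 fold change of 0.53 at 1 h (FDR 0.00183). RPL11, which with RPL5 and 5S rRNA binds MDM2 when ribosome assembly is disturbed, stood at 0.54 (FDR 0.00162). RPLP0, the base of the stalk that recruits elongation factors, stood at 0.42 (FDR 0.00404). RPL19 and RPL11 lay above the upper quartile of the family and RPLP0 within its quartiles. RPL36A had the lowest value of the family, −1.22, but its FDR was 0.132 at an average level of 1.29 log2 CPM, the lowest among cytosolic members.

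The mitochondrial genes were near 0 at 1 h on the deposited scale, with a median of −0.11, and at −0.78 after mitochondrial scaling. MRPL17, a large-subunit protein, was the only one past the threshold, at −1.26 (SE 0.22, FDR 0.000858), or 2.39-fold lower than in DMSO. Over all listed genes 7.71% were past it in the lower direction. Another 45 mitochondrial members had values between −1 and 0 and 16 had values above 0, and MRPL17 was also the only one with an FDR under 0.05, against 11.9% of listed genes lower by the FDR alone. The medians of the families were 0.52 apart at this time, a gap that no common scaling changes.

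**Figure D1:**
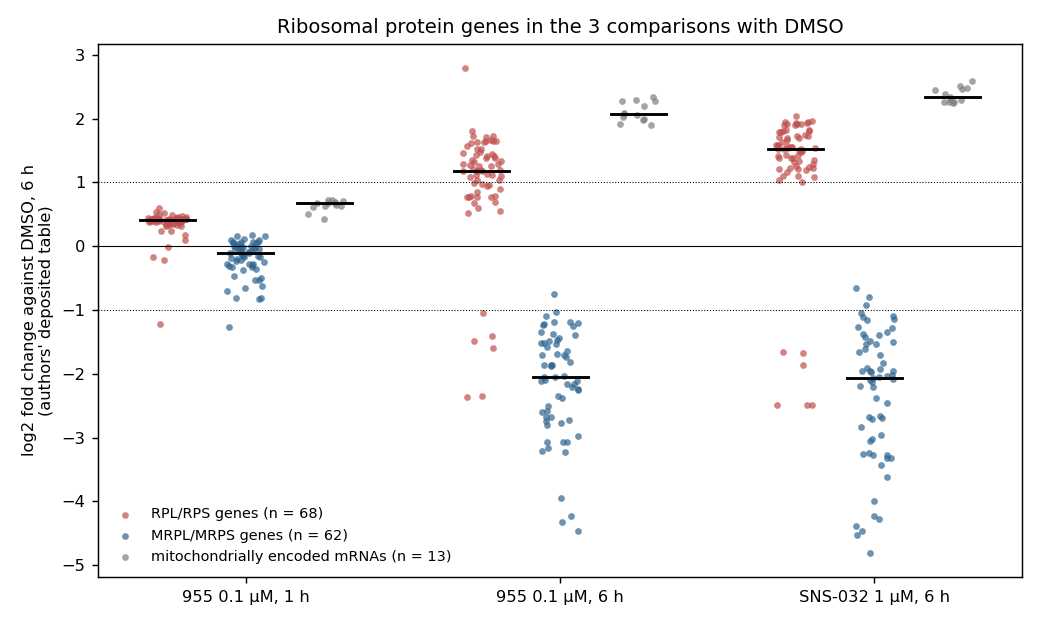
Each point is 1 gene, with its log2 fold change against DMSO at 6 h on the y axis for the cytosolic genes (n = 68), the mitochondrial genes (n = 62) and the mitochondrially encoded mRNAs (n = 13) in each of the 3 comparisons. Black bars are medians and dotted lines mark a 2-fold change; the cytosolic medians of 1.18 and 1.53 at 6 h become −0.89 and −0.82 once the grey points are set to a median of 0, while at 6 h the mitochondrial genes lie below 0 on both scales.

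After 6 h of 955 the families had moved apart. The cytosolic median was 1.18, or 2.27-fold above DMSO, with quartiles of 0.84 and 1.45, but −0.89 after mitochondrial scaling. On the deposited scale 45 of 68 cytosolic members were past the threshold in the higher direction and 6 in the lower, against 35.2% and 50.1% of all listed genes. The mitochondrial median was −2.05, or 4.15-fold below DMSO, and 61 of 62 members were past the threshold, all lower. The median of all listed genes lay 2.21 below the cytosolic and 1.03 above the mitochondrial median, and the medians of the families differed by 3.23, or 9.41-fold.

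With the FDR alone, 62 cytosolic members were higher on the deposited scale, from 0.53 upwards, and 6 were lower, against 38.7% and 54.8% of listed genes. After mitochondrial scaling 67 of the 68 were below 0, and so were 5114 of the 5759 listed genes scaled alike. None of the 68 remained past the fold bound in the higher direction and 25 were past it in the lower (36.8%), against 3.25% and 60.7% of listed genes scaled alike. The scaled mitochondrial genes, with a median of −4.12, were all 62 past it in the lower direction. The FDR belongs to the deposited value and was kept for these scaled counts, so they are no test of the scaled values.

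As deposited, 15 cytosolic genes stood at 1.5 or above, before the mitochondrial scaling, which takes 2.07 from each. RPS12 had a log2 fold change of 1.81 (SE 0.13, FDR 7.24e-11). The stalk proteins RPLP1, RPLP2 and RPLP0 stood at 1.73, 1.62 and 1.52, and RPL12, at the base of the stalk, at 1.71. RPSA, a small-subunit protein also known as a laminin receptor precursor, stood at 1.64 beside 1.73 for its near-identical copy RPSA2, between which reads may be split. RPL22, RPL27, RPL37, RPL39, RPS19, RPS20 and RPS21 were also among them, between 1.53 and 1.67. All of those named here fall below 0 on the mitochondrial scale.

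Lowest among the genes that were higher on the deposited scale came RPS4X, the X-linked form of a small-subunit protein, at 0.53 (SE 0.10, FDR 0.000147) and RPL19 at 0.55 (SE 0.10, FDR 8.19e-05). RPS16 followed at 0.60, RPL34 at 0.68 and RPS3, which lines the mRNA entry channel, at 0.69. In all, 17 genes rose by less than 2-fold with 955, among them RPL6, RPL8, RPL10A, RPL11, RPL18, RPL23A, RPS6, RPS13, RPS14 and RPS15A. RPS6 is the S6 kinase substrate of the small subunit, and its value was 0.97 (SE 0.10, FDR 1.48e-08). The distance from RPS4X to RPS12, 0.53 against 1.81, is wider than their SEs of 0.10 and 0.13. Between them lay a continuous run of 30 genes at 1 to under 1.5, among them RPS27 at 1.42 and RPS2, near the entry channel, at 1.36.

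The 6 cytosolic genes that fell did so on both scales. RPL36AL, a paralogue of RPL36A, fell to −2.37 (SE 0.23, FDR 1.26e-08) and RPL26L1, a paralogue of RPL26, to −2.36 (SE 0.31, FDR 2.17e-06). RPL7L1, a nucleolar relative of RPL7, fell to −1.60 (SE 0.12, FDR 3.32e-10). RPS27L, a p53-inducible paralogue of RPS27, fell to −1.48 (SE 0.20, FDR 2.37e-06). RPS19BP1, which binds RPS19 and is not a component of the mature ribosome, fell to −1.05 (SE 0.34, FDR 0.0353). RPL36A fell to −1.41 (SE 0.43, FDR 0.0143). The symbols of the other 5 end in L or L1 or name a binding partner. That split is by symbol alone, and RPL36A and RPL36AL are paralogues of each other.

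Paralogues differed widely in 2 of the pairs in which both genes were listed. RPS27 stood 2.91 above RPS27L on the log2 scale with 955 at 6 h, and RPL7 stood 2.78 above RPL7L1, differences that no common scaling alters. RPL36A stood 0.95 above RPL36AL, beside SEs of 0.43 and 0.23. RPSA and RPSA2 differed by −0.09. At 1 h the RPS27 pair was 0.18 apart and the RPL7 pair 0.66 apart. These differences between genes were not tested.

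**Figure D2:**
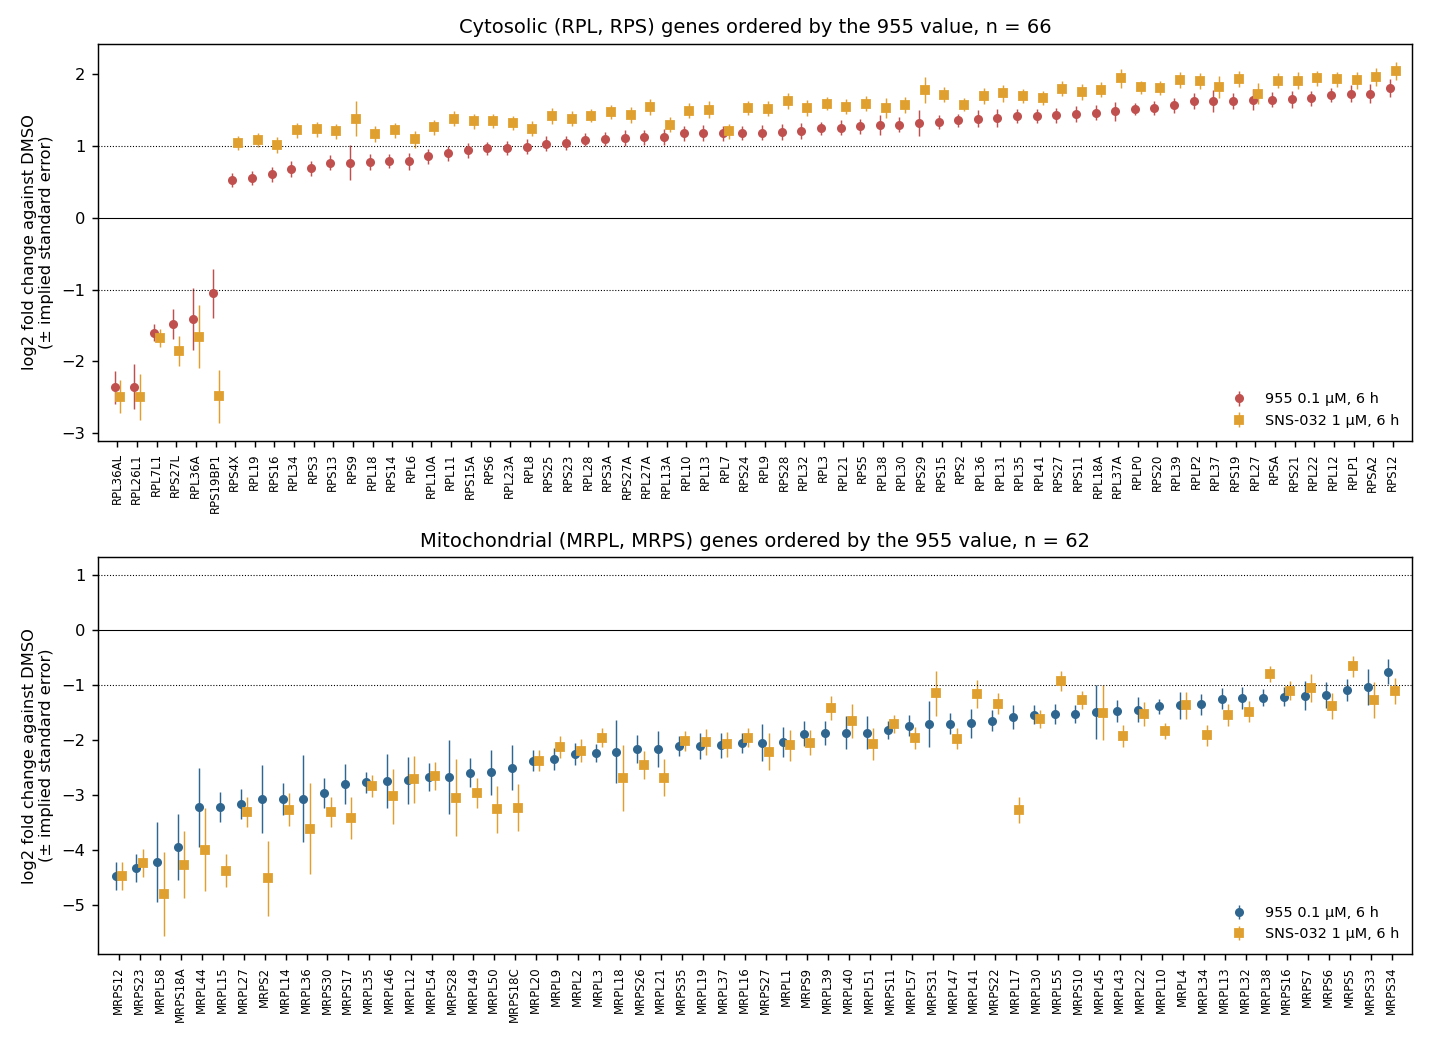
The cytosolic genes (upper panel, 66 of the 68 drawn) and the mitochondrial genes (lower panel, n = 62) are each ordered by their log2 fold change with 955 at 6 h, circles for 955 and squares for SNS-032; bars are the implied SE and dotted lines mark a 2-fold change. On the deposited scale 6 of the drawn cytosolic genes lie below 0 with both compounds and 60 above, and all of these lie below 0 after mitochondrial scaling. All 62 mitochondrial genes lie below 0 on both scales. With 955 at 6 h 5114 of all 5759 listed genes lie below 0 after that scaling.

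The mitochondrial genes spread more widely, from −4.47 to −0.75, with quartiles of −2.68 and −1.52. MRPS12, a small-subunit protein of the decoding centre, fell to −4.47 (SE 0.25, FDR 2.48e-12), or 22.2-fold. MRPS23, of the small subunit, fell to −4.33 (SE 0.25, FDR 3.55e-12). MRPL58, a peptidyl-tRNA hydrolase that became a large-subunit protein, fell to −4.22 (SE 0.73, FDR 0.0015). MRPS18A fell to −3.95 (SE 0.60, FDR 0.000662) and MRPL44, an RNase III-like large-subunit protein, to −3.22 (SE 0.72, FDR 0.00733). The last 3 values and those of MRPL12, MRPL18, MRPL36 and MRPS2 have under 10 denominator degrees of freedom, against a median of 23.3 over members, and the SEs of these 7 at 6 h with 955 run up to 0.80.

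In total 10 mitochondrial genes had log2 values under −3, MRPL14, MRPL15, MRPL27, MRPL36 and MRPS2 being the others. A further 23 lay between −3 and −2, among them MRPL12, the mitochondrial stalk protein, at −2.73 (SE 0.43, FDR 0.000818). Another 28 lay between −2 and −1, among them MRPL45, which anchors the ribosome to the inner membrane, at −1.49 (SE 0.50, FDR 0.0246). MRPS34, of the small subunit, had the smallest change, −0.75 (SE 0.23, FDR 0.0169), and was the only member short of the fold bound. Large-subunit and small-subunit symbols had like medians, −2.08 and −1.97, as did the cytosolic ones, 1.20 and 1.15 (−0.89 for the whole cytosolic family after mitochondrial scaling).

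With SNS-032 at 6 h the pattern of the families was the same in direction on each scale. The cytosolic median was 1.53, or 2.88-fold above DMSO, and −0.82 after mitochondrial scaling. On the deposited scale 61 of 68 members were past the threshold in the higher direction and 6 in the lower, against 37.8% and 52.5% of listed genes; scaled, 22 were past it in the lower direction (32.4%) and none in the higher, against 68.4% and 2.59% of listed genes. The mitochondrial median was −2.06, or 4.17-fold below DMSO, with 58 of 62 past the threshold, all lower. The medians of the families differed by 3.59. The comparisons with 955 and SNS-032 share the same 3 DMSO samples, so their likeness is not independent evidence.

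RPS12 stood highest among cytosolic genes, at 2.04 (SE 0.13, FDR 8.46e-12), or 4.12-fold on the deposited scale. RPS16 at 1.01 and RPS4X at 1.04 stood lowest among the 61 past the threshold in the higher direction on that scale. Each of the 17 genes that stayed under 2-fold with 955 was past it with SNS-032. The listing fixed that outcome, because those genes were under 2-fold at 1 h too and had to pass somewhere to be listed. The same 6 genes fell: RPL26L1 to −2.50, RPL36AL to −2.49, RPS19BP1 to −2.49 (SE 0.37, FDR 0.000106), RPS27L to −1.86, RPL7L1 to −1.67 and RPL36A to −1.66. Of the cytosolic genes, 44 were past the threshold in the higher direction with both compounds (64.7%, against 32.2% of listed genes). Another 17 were past it only with SNS-032 (25%, against 13.2% with SNS-032 only in either direction). These are the same 17 genes, so their count is bound to the listing and is not read as a difference between the compounds.

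Among mitochondrial genes MRPL58 had the lowest value with SNS-032, −4.80 (SE 0.77, FDR 0.000837). MRPS2, a small-subunit protein, followed at −4.52 (FDR 0.000689), MRPS12 at −4.47 (FDR 1.85e-12), MRPL15 at −4.38 (FDR 3.92e-10) and MRPS18A at −4.27 (FDR 0.000442). Both compounds put 57 members past the threshold in the lower direction (91.9%, against 44.8% of listed genes). MRPL38 at −0.79, MRPL55 at −0.92 and MRPS5 at −0.66 missed the fold bound with SNS-032, MRPS31 missed the FDR (−1.14, FDR 0.0589), and MRPS34 passed with SNS-032 alone (FDR 0.000762). Being past the threshold with 1 compound and not the other does not show that the compounds differed.

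The compounds were therefore set against each other directly, as the log2 difference of 955 at 0.1 µM minus SNS-032 at 1 µM, both at 6 h. The SE combined the 2 implied SEs as their root mean square, and p-values from a t distribution were adjusted by Benjamini-Hochberg over all 5759 genes. The contrast is approximate and the doses differ. The cytosolic median difference was −0.32 on the deposited scale, and 61 of 68 differences were below 0. No cytosolic member reached an absolute difference of 1 with an adjusted p under 0.05, against 1.11% of listed genes. With the adjusted p alone, 18 were lower with 955 than with SNS-032, against 0.972% of listed genes, and none was higher, against 1.75%. The median fold with 955 was thus 0.802 of that with SNS-032. Members listed only through their SNS-032 value entered these medians and counts.

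Those 18 included RPS3 (0.69 with 955 and 1.23 with SNS-032, difference −0.55, 95% interval −0.77 to −0.33, adjusted p = 0.0069 by this t contrast). RPL34 differed by −0.54 (interval −0.76 to −0.32), RPL19 by −0.53 (interval −0.73 to −0.32) and RPS4X by −0.51. The others were RPL3, RPL10A, RPL11, RPL18, RPL23A, RPL27A, RPS3A, RPS6, RPS13, RPS14, RPS15, RPS15A, RPS16 and RPS28. Of the 18, RPL3, RPL27A, RPS3A, RPS15 and RPS28 were past 2-fold with both compounds at 6 h. The rest were under 2-fold in both comparisons of 955, so they are listed only through SNS-032. That selection favours a lower value with 955, and the count of 18 is not read as a result about the family. All 18 calls also depended on the scaling and on the SE. With the larger of the 2 implied SEs 17 cytosolic genes had an adjusted p under 0.05, all lower with 955, against 144 of 5759 listed genes in either direction. The mitochondrially encoded mRNAs had a median of 2.07 with 955 against 2.35 for SNS-032, and after scaling on them the cytosolic median difference was −0.04. So scaled, 2 cytosolic genes had an adjusted p under 0.05, neither of them lower with 955, against 651 of 5759 listed genes in either direction. With an SE that ignores the shared control no cytosolic gene had, and only 8 of 5759 listed genes had.

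For some other members the difference lay near 0. RPL7 stood at 1.18 and 1.21, a difference of −0.03 with an interval of −0.24 to 0.19. RPL27 differed by −0.08, with an interval of −0.39 to 0.22. MRPS12 differed by 0.00, with an interval of −0.53 to 0.53, and MRPL20 by 0.00, with an interval of −0.39 to 0.39. The interval held 0 for 14 of 68 cytosolic and 53 of 62 mitochondrial genes, and had a median width of 0.44 and 1.05, so smaller differences were not resolved in the mitochondrial family. The intervals are not adjusted for the number of genes. Some left out 0 with an adjusted p of 0.05 or above, such as those of RPLP0 (−0.48 to −0.12) and MRPL10 (0.16 to 0.74).

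RPS19BP1 had the largest cytosolic difference, 1.44 (interval 0.67 to 2.20), being lower with SNS-032, with an adjusted p = 0.0526 in this t contrast and 0.0089 after mitochondrial scaling. In the same t contrast the adjusted p was 0.0639 with the larger of the 2 SEs and 0.563 with the SE that ignores the shared control. The mitochondrial median difference was 0.16, and 2 members were past the threshold, both lower with SNS-032, against 0.851% of listed genes in that direction. MRPL17 stood at −1.58 (SE 0.22) with 955 and −3.28 (SE 0.24) with SNS-032, a difference of 1.69 (SE 0.23, interval 1.21 to 2.18, adjusted p = 0.000291 in the t contrast), or 3.23-fold. MRPL15 stood at −3.21 and −4.38, a difference of 1.16 (SE 0.29, interval 0.57 to 1.76, adjusted p = 0.0316 in the t contrast). With the SE that ignores the shared control MRPL17 kept its call (adjusted p = 0.0466 in the t contrast) and MRPL15 lost it (0.477). MRPS2 had a difference of 1.45, but its interval of −0.04 to 2.93 held 0. MRPL55 had the lowest difference, −0.60 (interval −0.99 to −0.22), with an adjusted p = 0.0923 in the t contrast.

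**Figure D3:**
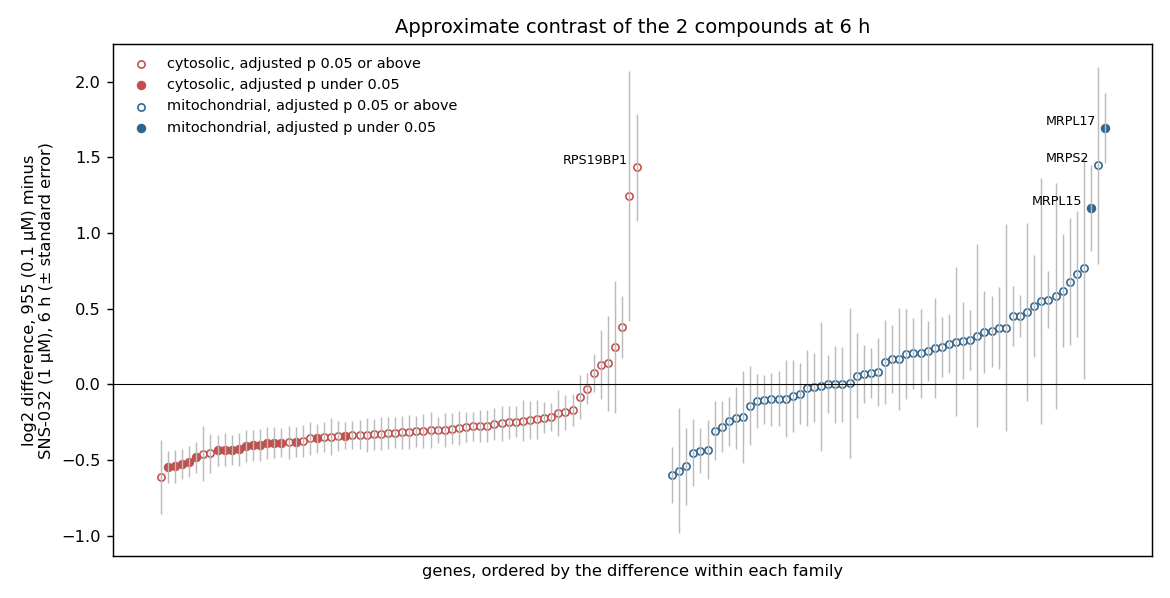
The log2 difference of 955 minus SNS-032 at 6 h is plotted on the y axis for each cytosolic (red) and mitochondrial gene (blue), ordered along the x axis within its family, with the SE as bars and filled points where the adjusted p is under 0.05. On the deposited scale the 18 filled cytosolic points lie between −0.55 and −0.34, and the 2 filled mitochondrial points are MRPL15 and MRPL17. Most of the filled cytosolic genes are listed only through their SNS-032 value. After mitochondrial scaling the cytosolic median moves from −0.32 to −0.04.

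Later and earlier samples of 955, at 6 h and 1 h, were contrasted in the same approximate way, and the DMSO value cancels in that difference. On the deposited scale the cytosolic median rose by 0.78 from 1 h to 6 h, and on the mitochondrial scale it was −0.62. On the deposited scale 23 cytosolic members were past the threshold in the higher direction, against 27% of listed genes, and 4 in the lower, against 35.6%. With the adjusted p alone, 65 of 68 differed between the times, against 84.7%. RPS12 had a difference of 1.43 (interval 1.17 to 1.69) and RPLP1 of 1.42. RPL19 had 0.03 (interval −0.18 to 0.23) and RPS4X 0.14, so the values of RPL19 at 1 h and 6 h, 0.53 and 0.55, did not differ beyond their error. The SD over the 62 rising genes was 0.06 at 1 h and 0.39 at 6 h.

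The mitochondrial genes fell between 1 h and 6 h on both scales. Their median difference was −1.91, and 57 of 62 were past the threshold, all lower. MRPS12 had the largest difference, −4.32 (interval −4.81 to −3.84). MRPL17, the member that was already low at 1 h, had the smallest, −0.32 (interval −0.78 to 0.13, adjusted p = 0.172 in the t contrast), so its values of −1.26 and −1.58 did not differ beyond their error.

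Levels also separated the families. The deposited average level, taken over all samples, was expressed per kb of spliced length from GENCODE release 29, as log2 CPM per kb, available for 67 cytosolic and 62 mitochondrial genes. The cytosolic median was 10.3 and the mitochondrial median 4.05, against 2.89 for all listed genes. RPS27, at 12.3, and RPLP0, at 12.2, were the highest. MRPL4 was the highest mitochondrial gene, at 6.29 log2 CPM per kb. The 6 falling cytosolic genes had a median of 4.01 and a range of 1.08 to 4.88, inside the range of the mitochondrial genes, which was 0.44 to 6.29. RPS9, at 3.80, was the only rising cytosolic gene at such a level, and its log2 fold change with 955 at 6 h was 0.77 (SE 0.24, FDR 0.0183; below 0 after mitochondrial scaling).

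Across the 67 cytosolic genes the log2 fold change with 955 at 6 h had a Spearman rho of 0.42 and a Pearson r of 0.74 with the level per kb. Within the 61 of them that rose on the deposited scale, rho was 0.23 and r 0.05. Within the 6 that fell, rho was −0.49 and r −0.33. Across the 62 mitochondrial genes rho was 0.26 and r 0.27. Over all listed genes rho was −0.07. These are descriptions across genes of the same libraries, genes are not independent replicates, and the average level includes the treated samples. The median gene span was 5220 bases in the cytosolic and 11284.5 bases in the mitochondrial family, against 24791 bases over listed genes, and the median spliced length was 825 and 1344.5 bases. Within a family, the rho of either length with the 955 value at 6 h lay between −0.22 and 0.14.

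**Figure D4:**
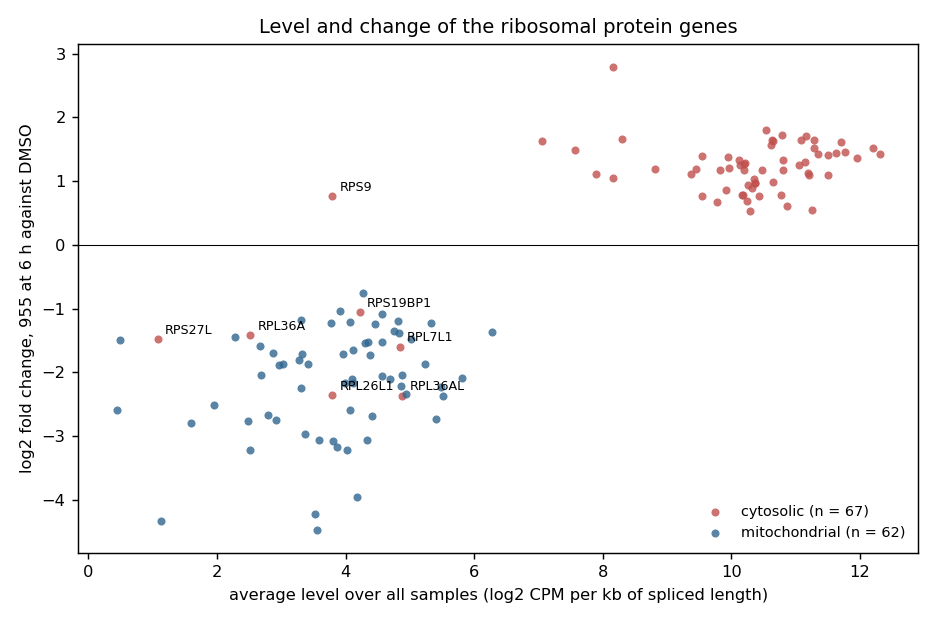
The x axis is the average level over all samples in log2 CPM per kb of spliced length and the y axis the log2 fold change with 955 at 6 h, with 1 point for each of 67 cytosolic (red) and 62 mitochondrial genes (blue). The 6 cytosolic genes below 0 lie between 1.08 and 4.88 on the x axis, among the mitochondrial genes. The rising ones, with RPS9 as the exception, lie higher on the x axis. After mitochondrial scaling 67 of the 68 cytosolic genes lie below 0, as do 5114 of all 5759 listed genes.

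Genes of translation outside the rule were read from lists. Ribosome components whose symbols lie outside the rule were listed for 5 of 8. With SNS-032 FAU, a ubiquitin-like protein fused to a small-subunit protein, stood at 1.28, which falls below 0 after mitochondrial scaling. The mitochondrial-ribosome proteins AURKAIP1, CHCHD1 and GADD45GIP1 fell to −2.01, −1.86 and −1.39 with 955 at 6 h. Of 51 cytosolic translation factors 26 were listed, 2 past the threshold higher and 19 lower with 955 at 6 h, and 4 and 20 with SNS-032, with medians of −1.43 and −1.44. EIF2B2 and EIF2B3, subunits of the exchange factor that recharges eIF2, fell to −2.84 and −2.23 with 955, and ABCE1, which recycles ribosomes, to −2.24.

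Of 14 mitochondrial translation factors 6 were listed, 5 of them past the threshold with 955 at 6 h and 6 with SNS-032, all lower. TACO1, an activator of COX1 translation, fell to −3.51 with 955, and TSFM, a mitochondrial elongation factor, to −2.22. Of 29 mitochondrial ribosome assembly factors 17 were listed, 16 past the threshold with 955 at 6 h and 15 with SNS-032, all lower, with medians of −1.66 and −1.89. MPV17L2 fell to −4.65, MALSU1 to −3.52 and MRM3, an rRNA methyltransferase, to −3.06 with 955. Beside these lists stand 35.2% higher and 50.1% lower of all listed genes with 955 and a median of −1.03, and 37.8% and 52.5% with SNS-032 and a median of −1.07.

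Of 25 further mRNAs known for a TOP start 11 were listed, with a median of 0.84 with 955 at 6 h and 1.28 with SNS-032, both below 0 once shifted by 2.07 and 2.35. With 955, 5 were past the threshold higher and 3 lower, and with SNS-032 8 and 2, beside the shares of listed genes given above for each compound. With 955 PABPC1, the poly(A)-binding protein, stood at 1.61, FAU at 1.15 and GAS5, a snoRNA host gene, at 1.49, whereas NPM1, a nucleolar chaperone, fell to −1.15.

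Promoter windows of RefSeq, 250 bases before to 50 after the start, matched 54 of 68 cytosolic and 55 of 62 mitochondrial genes. A TOP-type start, here a C at the annotated first base and at least 4 pyrimidines directly after it, was present in 38 of 54 cytosolic genes (70.4%) and 5 of 55 mitochondrial genes (9.09%), against 5.14% of 27305 genes with a window and 7.94% of those listed. The 5 mitochondrial genes were MRPL44, MRPL45, MRPS2, MRPS27 and MRPS33, and their values with 955 at 6 h ran from −3.22 to −1.03. Of the cytosolic genes higher at 6 h, 37 of 49 had it, and of the lower ones RPL36A alone of 5. Over the cytosolic genes with a window the median with 955 at 6 h was 1.18 in the 38 with such a start, from −1.41 upwards, and 1.02 in the 16 without it, from −2.37 upwards (both medians below 0 after mitochondrial scaling). Among the genes that rose on the deposited scale, no such gap was seen. Their medians were 1.18 in the 37 with the start and 1.20 in the 12 without it. With SNS-032 these were 1.53 and 1.56, and all 4 fall below 0 after mitochondrial scaling. The relation of the start to the change was not tested.

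Motifs were searched as exact letters on both strands of the 250 bases before the start. CCGGAAG, the core bound by ETS factors such as GABP, was found in 35.2% of cytosolic and 38.2% of mitochondrial windows, against 10.2% of all windows and 19.6% of those of listed genes. GGGCGG, the GC box, was in 59.3% and 63.6%, against 46.2% of all and 72.1% of listed. TATAAA was in 7.41% and 1.82%, against 3563 of all 27305 windows and 8.78% of listed, and is seen as tataaa in the printed RPLP0 sequence. CACGTG, the E-box, was in 7.41% and 14.5%, against 7.73% of all and 10.8% of listed. GCATGCG, the core of the NRF1 site, was in 5.56% and 7.27%, against 4.16% of all and 6.55% of listed. The families held CCGGAAG at near shares, and the relation of any motif to the fold changes was not tested. A match is a run of letters and no evidence of binding.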

How the data were processed

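RNA was sequenced from 12 MOLT4 samples in 4 groups of 3, with groups taken from the titles. An mRNA kit from BGI was used on total RNA, per the labels' protocols. The submitters' processing notes name hg38 and DESeq2, with no role or version. The deposited columns hold an F statistic, which DESeq2's tests do not give, so the software behind the comparisons is not settled. Aligner, counter, use of strand, annotation, normalization and filters are not given in the sources used here.

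The authors deposited, per the file headers, 3 comparisons with DMSO, each with a log fold change and an average log CPM, read as log2 values. The F statistic is a score the authors deposited. The p-value and the FDR (an adjusted p-value) were used as the authors deposited them. No values per sample were analysed, so the depth is unknown and no interval that needs depth is given.

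IDs were matched to RefSeq GRCh38.p14 (5727 of 5759). The denominator degrees of freedom were solved from F and p. Contrasts of treated groups were differences of log2 fold changes, with the SE as the root mean square of the 2 implied SEs, a t distribution, and Benjamini-Hochberg adjustment over 5759 genes, tested on simulated data. Python 3.11.15, pandas 2.3.3, numpy 2.4.6, scipy 1.17.1 and matplotlib 3.10.9 were used. Spliced lengths were those of the principal GENCODE 29 transcript of median length. Subunits follow the symbol. Some items are not reported here, though they remain in the counts.

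Named were any cytosolic member, of the mitochondrial members past the threshold the 5 largest falls in each comparison, mitochondrial members past the threshold at 1 h or between treated groups, those with the extreme differences between compounds, exceptions within a family, and the 3 largest changes of each list; a few others were chosen after their values were seen. The members and lists were chosen with earlier results of these data known, and the definition of a TOP-type start and the paralogue pairs were added after the values were seen. Alternatives covered the FDR and fold bounds, scaling on the 13 mitochondrially encoded mRNAs, membership without paralogues and RPS19BP1, means for medians, and the SE of the contrasts. Paralogues were left out there by symbols ending in L or L1, so RPSA2 and RPL36A stayed in.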

Additional observations from a re-analysis of the deposited data

Results flagged for a closer look

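MRPL17 and MRPL15, both of the large mitochondrial subunit, are listed here because their log2 fold changes against DMSO differed between 955 and SNS-032 at 6 h by the approximate t contrast. MRPL17 had a difference of 1.69 (SE 0.23, adjusted p = 0.000291), being −1.58 with 955 and −3.28 with SNS-032. MRPL15 had a difference of 1.16 (SE 0.29, adjusted p = 0.0316), being −3.21 and −4.38. The difference kept its sign and its call for both genes with the larger of the 2 SEs (adjusted p = 0.000577 and 0.0415) and after mitochondrial scaling, where it was 1.97 and 1.44. With an SE that ignores the shared control the call was lost for MRPL15 (adjusted p = 0.477) and kept for MRPL17 (0.0466). The doses of the compounds differ, so the compound and its dose cannot be told apart.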

How the results depend on the processing

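The direction of the mitochondrial family held under each alternative run, and that of the cytosolic family reversed with the scaling. Scaled on the 13 mitochondrially encoded mRNAs, the cytosolic median was −0.27 for 955 at 1 h, −0.89 for 955 at 6 h and −0.82 for SNS-032, and the mitochondrial one −0.78, −4.12 and −4.41. So scaled, the cytosolic genes past the threshold numbered 25 with 955 at 6 h and 22 with SNS-032, all lower, against 60.7% and 68.4% of listed genes lower. They numbered 1 between the compounds and 15 between 6 h and 1 h. For these 2 contrasts no scaled share of listed genes is given, so both counts are not read as results about the family. With no bound on the fold change they numbered 47 with 955 at 1 h, 18 between the compounds and 65 between 6 h and 1 h. The shares of listed genes beside these were 4.72% higher, 0.972% lower with 955, and 84.7% in either direction. Most of the 18 are listed only through their SNS-032 value. Means in place of medians gave 0.98 with 955 at 6 h and 1.23 with SNS-032 for the cytosolic family, and −2.33 with SNS-032 for the mitochondrial family. An SE that ignores the shared control left 1 mitochondrial gene past the threshold between the compounds, MRPL17. FDR under 0.01 and membership without paralogues and RPS19BP1 kept each count within 1.5 times. That membership also moved each median by less than the median implied SE of the family in the same comparison. No paired analysis was possible because only comparisons, not values per sample, were analysed. For the same reason leaving out a replicate was not run, and the weight of a single library in these values was not tested. Depth was unknown, and which members lie under the authors' filters cannot be told from the listed genes.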
